A study of Mus musculus with 64 samples.

Results

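The genes described here are 38 lipid synthesis genes under the control of the sterol regulatory element-binding proteins (SREBPs), out of the 16593 genes that had a probe on the array. They were taken by symbol from the annotated probes and treated in 3 groups. The first held 19 cholesterol pathway genes, the second 15 fatty acid and triglyceride synthesis genes, and the third the 4 regulators Srebf1, Srebf2, Insig1 and Insig2. A probe was present for 33 of the 38 genes, and all 33 passed the filter on dim probes. These were 16 of 19 cholesterol genes, 13 of 15 fatty acid genes and 4 of 4 regulators. Acat2, Mvk, Fdft1, Acacb and Pnpla3 were not analysed here. No gene was chosen for its measured value, although the list was drawn up with earlier results of these data known.

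The study measured RNA of liver and of liver tumours on 64 Illumina mouse bead arrays. The animals were 31 male C57BL/6 mice, and every one, placebo animals included, had received the carcinogen diethylnitrosamine (DEN) at 50 mg/kg at 2 weeks of age. All livers are therefore livers of DEN-treated mice. Treatment by gavage began at 44 weeks and went on for 28 days, at 2 doses each day. At 48 weeks the mice were fasted for 3 h and killed. The placebo groups held 7 livers and 10 tumours of 6 animals. BEZ235, a compound that blocks the catalytic sites of PI3K and mTOR, was given at 30 mg/kg, with 6 livers and 10 tumours of 6 animals. RAD001 (everolimus), an allosteric inhibitor of mTOR complex 1, was given at 10 mg/kg, with 7 livers and 10 tumours of 6 animals. The combination was 2.5 mg/kg of RAD001 with 18 mg/kg of BEZ235, so neither compound was at its single-agent dose, with 7 livers and 7 tumours of 4 animals. The last BEZ235 dose came 1 h before sacrifice and the last RAD001 dose at the start of the fast. The replicate was the animal. Tumours of 1 animal were averaged, so that the tumour of an animal below is this average unless separate tumours are named. Both tissues came from 18 animals.

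SREBPs are transcription factors held in the endoplasmic reticulum membrane by the escort protein SCAP and the INSIG anchors. When membrane sterol falls, SCAP carries them to the Golgi, where proteases release the active fragment. SREBP-2, from Srebf2, is best known for driving cholesterol synthesis, and SREBP-1c, from Srebf1, for driving fatty acid and triglyceride synthesis in liver in response to insulin. mTOR complex 1 is known to promote SREBP activity. In mouse liver, SREBP-1c also responds to oxysterols through LXR, and Insig2 has a liver transcript that insulin lowers.

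RefSeq promoter windows were found for 32 of the 38 genes (build GRCm38.p6), and the 250 bases before the transcript start were searched on both strands for 4 motifs. The motif CCAAT, which NF-Y binds, was in 14 of 15 cholesterol genes (93.3%), 8 of 13 fatty acid genes (61.5%) and 4 of 4 regulators, against 40.8% of the 8510 tested genes with a window. The GC box GGGCGG was in 14 of 15 cholesterol genes (93.3%) and 6 of 13 fatty acid genes (46.2%), against 59.3% of tested genes. The E-box CACGTG was in 3 of 15 (20.0%) and 1 of 13 (7.69%), against 9.51%. The SRE-like letters TCACNCCAC were in 1 cholesterol gene, Hmgcs1, and 0 of 13 fatty acid genes, against 1.29% of tested genes. The genes with a window include Acat2, Mvk, Acacb and Pnpla3, which were not measured, and lack Sqle, Fdps and Stard4, which were. The tested genes set beside them are therefore not a like set. A match describes these letters and is no evidence of binding. The stretches below show 160 bases before the start for 5 cholesterol genes that were higher in placebo tumours, and for Fads2, the fatty acid gene with the largest rise. In Fads2 none of the 4 motifs occurred in the 160 bases, but a GC box lay further out, at 186 bases. Dhcr7, also higher but not shown, held a GC box and no CCAAT in the 160 bases before its annotated start. The stretches were chosen after the matches were seen. Capitals mark motif matches on either strand, so that ATTGG is CCAAT and CCGCCC is GGGCGG read on the opposite strand.
Hmgcs1, chr13:119690191-119690350, plus strand: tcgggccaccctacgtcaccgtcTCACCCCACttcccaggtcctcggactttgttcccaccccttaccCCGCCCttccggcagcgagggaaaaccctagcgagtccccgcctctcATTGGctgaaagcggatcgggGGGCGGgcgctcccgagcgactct
Mvd, chr8:122443423-122443582, minus strand: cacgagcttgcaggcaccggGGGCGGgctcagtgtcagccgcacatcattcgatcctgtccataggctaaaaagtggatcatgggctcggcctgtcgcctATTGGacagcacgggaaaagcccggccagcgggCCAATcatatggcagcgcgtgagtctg
Cyp51, chr5:4104698-4104857, minus strand: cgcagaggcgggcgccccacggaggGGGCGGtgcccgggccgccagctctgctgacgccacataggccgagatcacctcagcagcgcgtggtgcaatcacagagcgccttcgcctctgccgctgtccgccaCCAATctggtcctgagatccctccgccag
Msmo1, chr8:64733579-64733738, minus strand: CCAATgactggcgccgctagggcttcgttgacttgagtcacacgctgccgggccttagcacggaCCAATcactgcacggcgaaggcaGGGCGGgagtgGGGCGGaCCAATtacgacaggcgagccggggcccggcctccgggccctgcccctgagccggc
Nsdhl, chrX:72918361-72918520, plus strand: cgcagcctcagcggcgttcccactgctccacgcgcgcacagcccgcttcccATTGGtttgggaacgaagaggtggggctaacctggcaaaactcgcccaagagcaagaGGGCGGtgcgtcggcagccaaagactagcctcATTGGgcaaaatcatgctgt
Fads2, chr19:10101504-10101663, minus strand: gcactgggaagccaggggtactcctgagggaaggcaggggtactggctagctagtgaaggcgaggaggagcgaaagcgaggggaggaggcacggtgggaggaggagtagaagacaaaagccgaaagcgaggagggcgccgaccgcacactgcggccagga
In the stretch of Hmgcs1 the SRE-like match began 137 bases before the start, followed by GC boxes at 92 and 24 bases and a CCAAT on the opposite strand at 45 bases. Mvd held CCAAT at 60 and 27 bases, and Msmo1 at 160, 96 and 55 bases.

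The first question was how the tumours of placebo animals differed from placebo liver. Values are log2 intensities, and a gene was called when limma's adjusted p, over all 10495 genes tested, was under 0.05. Cholesterol synthesis genes were mostly higher in tumours, whereas the fatty acid genes split into higher and lower members. Of the 33 genes, 17 were called higher, against a background of 18.8% of all genes tested, and 4 lower, against 16%. The median log2 difference was 0.55 over the 33 genes and 0.01 over all genes tested. By group, 9 of 16 cholesterol genes were higher and 1 lower with a median of 0.97, 6 of 13 fatty acid genes were higher and 3 lower with a median of 0.56, and 2 of 4 regulators were higher with a median of 0.18. In bulk tissue, fewer cells of a type and less RNA per cell cannot be told apart.

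**Figure D1:**
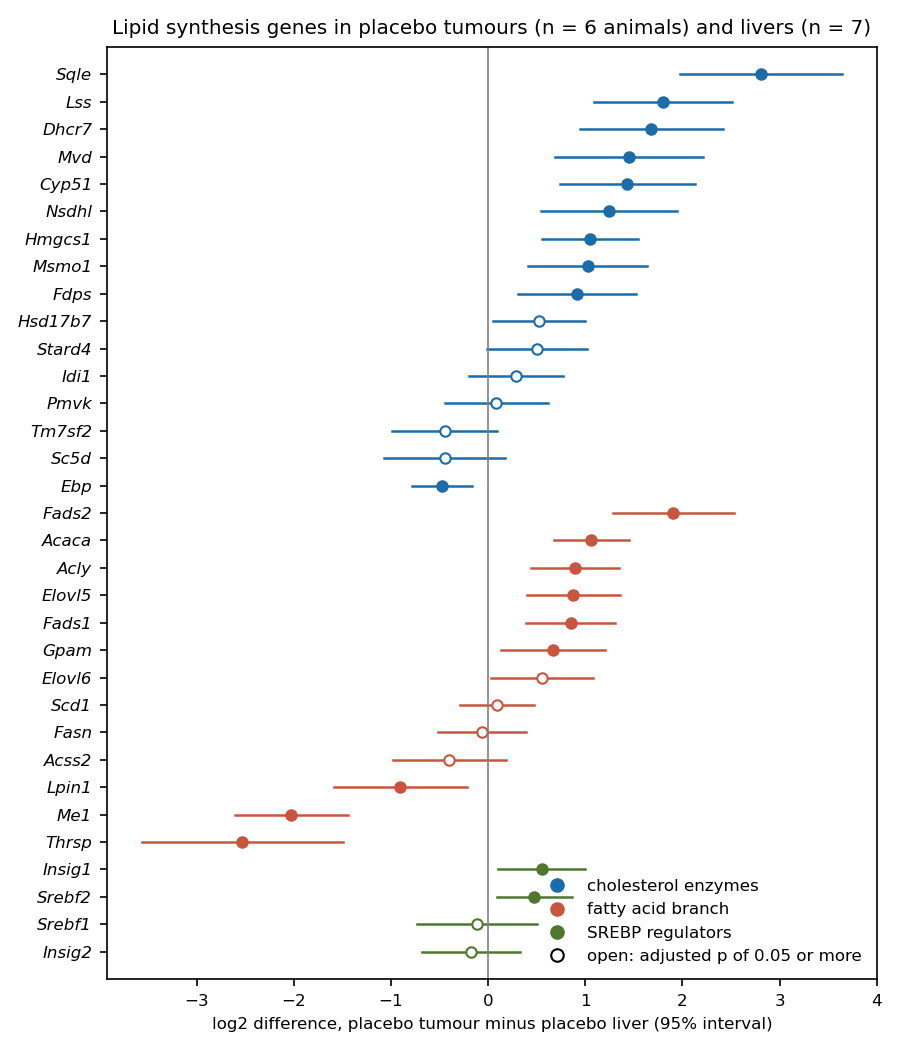
Log2 difference between placebo tumour (n = 6 animals) and placebo liver (n = 7) for each of the 33 measured genes, with the 95% interval, coloured by group; open points did not pass an adjusted p of 0.05. Sqle has the largest positive difference (2.81) and Thrsp the largest negative one (-2.53), and the cholesterol genes lie mostly to the right of 0.

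Sqle, squalene epoxidase, which makes the oxygenated precursor of the sterol ring, showed the largest difference of the 33 genes. In placebo livers it had a lowest, median and highest log2 intensity of 6.96, 9.42 and 9.83 (mean 8.95 ± 1.09, SD, n = 7). In placebo tumours these were 11.10, 11.80 and 12.10 (mean 11.73 ± 0.39, n = 6). The tumour value of every animal lay above every liver. The log2 difference was 2.81 (95% interval 1.98 to 3.64, adjusted p = 3.89e-07), a 7.02-fold rise. A second Sqle probe gave 2.50 and was also called.

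Lss, lanosterol synthase, which closes the sterol ring, had lowest, median and highest log2 intensities of 7.20, 8.04 and 8.85 in placebo livers. In placebo tumours they were 8.69, 9.95 and 10.46, so that the lowest tumour overlapped the highest liver. The difference was 1.80 (1.09 to 2.51, adjusted p = 5.59e-05), or 3.48-fold. Dhcr7, the reductase of the last step to cholesterol, was 6.08, 7.44 and 7.97 in livers against 7.87, 9.06 and 9.84 in tumours, a rise of 1.68 (0.94 to 2.41, adjusted p = 0.000237). Its groups overlapped in the same narrow way.

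Early steps of the pathway rose as well. Hmgcs1, the cytosolic HMG-CoA synthase, ran from 12.54 over 13.40 to 13.90 in placebo livers and from 14.01 over 14.32 to 14.84 in tumours. The groups did not overlap, and the difference was 1.05 (0.55 to 1.54, adjusted p = 0.000607), or 2.06-fold. Mvd, mevalonate diphosphate decarboxylase, ran from 4.86 over 6.51 to 6.81 in livers and from 7.09 over 7.58 to 8.36 in tumours, again without overlap, with a difference of 1.45 (0.69 to 2.21, adjusted p = 0.00192). Its liver level lay close to the floor of the scale, a log2 value of 4 set by the offset, which understates the fold of dim genes. Fdps, farnesyl diphosphate synthase, rose by 0.92 (adjusted p = 0.0148), a call lost without the liver of animal 710 (0.74). Idi1, the isomerase between Mvd and Fdps, was a dim probe, above noise on 60 of 64 arrays, and its difference of 0.29 (-0.20 to 0.77, adjusted p = 0.397) did not pass. Pmvk, phosphomevalonate kinase, differed by 0.08 (adjusted p = 0.854).

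Among the later sterol steps, Cyp51, the lanosterol demethylase, rose by 1.43 (0.73 to 2.13, adjusted p = 0.000834), from a liver median of 9.79 to a tumour median of 11.08. The lowest tumour, at 10.05, lay just under the highest liver, at 10.06. Nsdhl and Msmo1, which act together to remove methyl groups from the ring, rose by 1.25 (adjusted p = 0.00389) and 1.02 (adjusted p = 0.00665). Ebp, the sterol isomerase, went the other way and fell by 0.47 (-0.78 to -0.16, adjusted p = 0.013), with 11.59, 11.90 and 12.11 in livers against 10.80, 11.48 and 11.83 in tumours. The call of Ebp was lost with the animal as a fixed block, at -0.40 (adjusted p = 0.144, over the 4 animals that gave both tissues), and without the tumour of animal 710, at -0.35. Hsd17b7, the ketoreductase, differed by 0.52 (adjusted p = 0.0766) and Stard4, a sterol carrier, by 0.50 (adjusted p = 0.131). With the animal as a block both were called, at 0.75 (adjusted p = 0.0242) and 0.72 (adjusted p = 0.0322). Tm7sf2, a sterol reductase, and Sc5d, a sterol desaturase, both differed by -0.45 (adjusted p = 0.206 and 0.286). Thus 6 of the 16 cholesterol genes did not pass.

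The 6 fatty acid genes that rose were Fads2, Fads1, Elovl5, Acaca, Acly and Gpam. Fads2, the first desaturase of polyunsaturated fatty acid synthesis, ran from 8.86 over 9.19 to 9.50 in placebo livers and from 10.69 over 10.98 to 11.73 in tumours. The groups did not overlap, and the difference was 1.91 (1.29 to 2.53, adjusted p = 2.36e-06), or 3.75-fold. Its partners Fads1, the next desaturase, and Elovl5, the elongase between them, rose by 0.85 (adjusted p = 0.00242) and 0.88 (adjusted p = 0.00272), also without overlap.

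Acaca, the carboxylase that makes malonyl-CoA, was 9.48, 10.14 and 10.29 in livers and 10.54, 10.93 and 11.81 in tumours. No tumour overlapped a liver, and the rise was 1.06 (0.68 to 1.45, adjusted p = 1.48e-05). Acly, which splits citrate into cytosolic acetyl-CoA, was 11.41, 11.75 and 12.12 in livers and 12.26, 12.59 and 13.46 in tumours, a rise of 0.89 (0.44 to 1.35, adjusted p = 0.00138) without overlap. Gpam, the mitochondrial acyltransferase that starts glycerolipid synthesis, rose by 0.67 (0.13 to 1.2) with an adjusted p of 0.0465, close to the limit. With the animal as a fixed block, over the 4 placebo animals that gave both tissues, it was 0.83 (adjusted p = 0.0585) and not called.

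The downward members included the largest fall of the list. Thrsp (Spot 14), a lipogenic protein regulated by thyroid hormone and carbohydrate, was 10.26, 10.80 and 12.09 in placebo livers and 7.16, 8.06 and 10.11 in placebo tumours. The groups did not overlap, and Thrsp fell by 2.53 (-3.57 to -1.49, adjusted p = 9.42e-05), a 5.78-fold difference. Me1, cytosolic malic enzyme, a source of NADPH for fatty acid synthesis, was tight in livers at 9.23, 9.54 and 9.61 and spread over 6.65, 7.06 and 8.70 in tumours. It fell by 2.03 (-2.61 to -1.45, adjusted p = 2.12e-07), or 4.08-fold, and a second probe gave -2.09. Lpin1, a phosphatidate phosphatase and coactivator, fell by 0.91 (adjusted p = 0.0329), with overlapping groups. With the animal as a block its difference was -0.37 (adjusted p = 0.375), and the call was lost.

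Several classical lipogenic enzymes did not pass. Scd1, the stearoyl-CoA desaturase, was 14.03, 14.16 and 14.35 in livers and 13.69, 14.36 and 14.62 in tumours, a difference of 0.09 (-0.29 to 0.47, adjusted p = 0.769). Fasn, fatty acid synthase, was read by a dim probe, above noise on 43 of 64 arrays, with 4.77, 5.03 and 6.13 in livers against 4.55, 5.08 and 5.66 in tumours. Its difference of -0.06 (-0.52 to 0.39, adjusted p = 0.868) is a bound on a reading near noise, and a difference in the transcript may not be detectable at this signal. Elovl6, an elongase of saturated chains, differed by 0.56 (adjusted p = 0.0961), and by 0.90 (adjusted p = 0.00558) with the animal as a block. Acss2, acetyl-CoA synthetase, differed by -0.40 (adjusted p = 0.31).

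Of the regulators, Srebf2 and Insig1 passed by a narrow margin and Srebf1 and Insig2 did not pass. Srebf1 was 6.5, 6.86 and 8.53 in placebo livers (mean 7.06 ± 0.72, n = 7) and had a mean of 6.95 ± 0.64 (n = 6) in tumours, a difference of -0.11 (-0.73 to 0.50, adjusted p = 0.821). Which of the SREBP-1a and SREBP-1c transcripts the probe reads was not tested. Srebf2 was 5.94, 6.62 and 6.87 in livers and 6.59, 6.96 and 7.28 in tumours, a rise of 0.48 (0.09 to 0.87) with an adjusted p of 0.0495. Insig1, itself a target of SREBPs, rose by 0.55 (0.11 to 1.00, adjusted p = 0.0479), from a median of 9.43 to 10.10 with overlapping groups. Both calls lie close to the limit. They were lost under 12 of 22 alternatives for Srebf2 and under 17 of 24 for Insig1, the animal as a block among them (0.44, adjusted p = 0.0697, and 0.59, adjusted p = 0.0711).

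**Figure D2:**
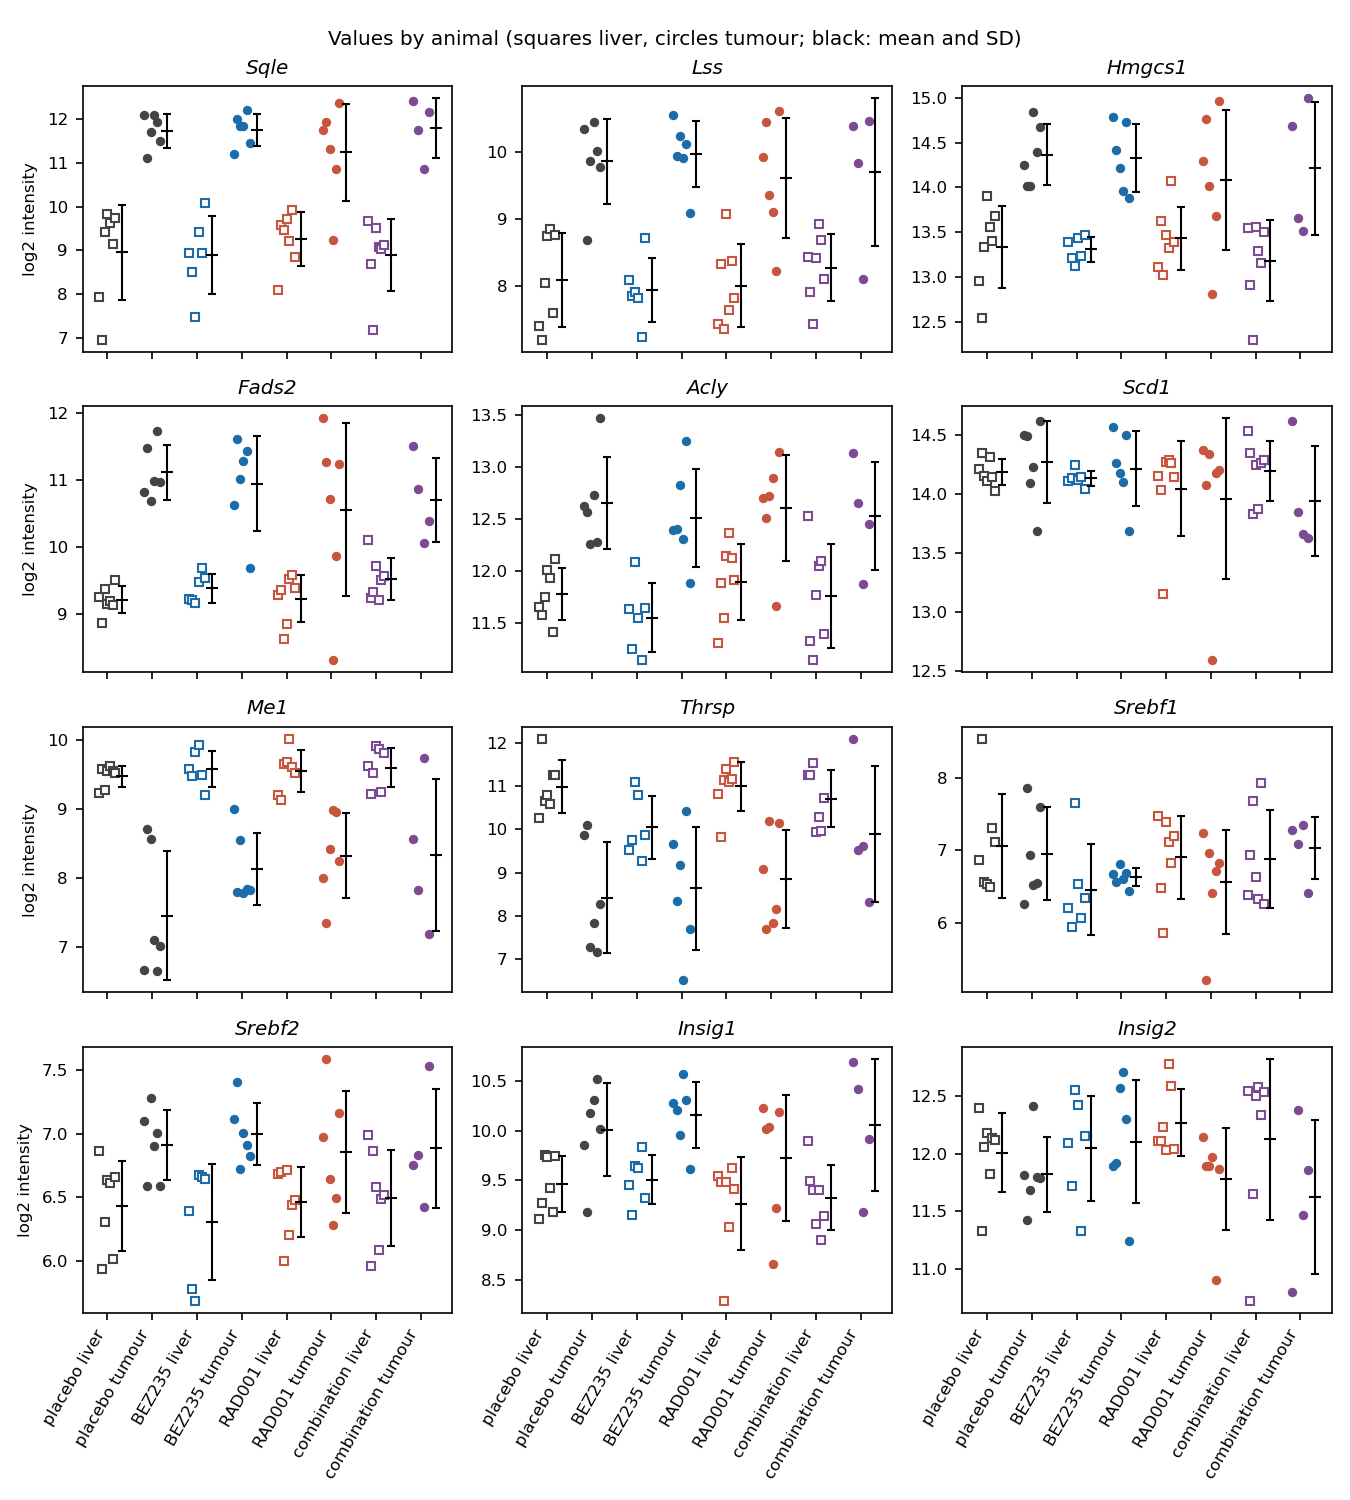
Log2 intensity of 12 genes in each animal, by treatment and tissue (squares liver, circles tumour), with the group mean and SD in black. Sqle, Lss, Hmgcs1, Fads2 and Acly stand higher in tumours, Me1 and Thrsp lower, and Scd1 and Srebf1 overlap throughout.

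The probes of the INSIG genes differed among themselves. The Insig2 probe that stands for the gene, the brightest, gave a difference of -0.18 (adjusted p = 0.645) between placebo tumour and liver, and a further probe gave 0.40 (adjusted p = 0.25). The Insig2 probe ILMN_1234858 gave -2.44 (SE 0.46, adjusted p = 3.52e-05). It also gave -2.05 (adjusted p = 0.000555) in RAD001 animals and -2.51 (adjusted p = 0.000428) in combination animals, and -1.06 (adjusted p = 0.0982) in BEZ235 animals, whereas the brightest probe was called in none of the 4. Whether these probes read different Insig2 transcripts was not tested. For Insig1, a further probe gave 0.52 (adjusted p = 0.0561) in placebo animals and another 0.05 (adjusted p = 0.893), against 0.55 for the probe that stands for the gene.

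**Figure D3:**
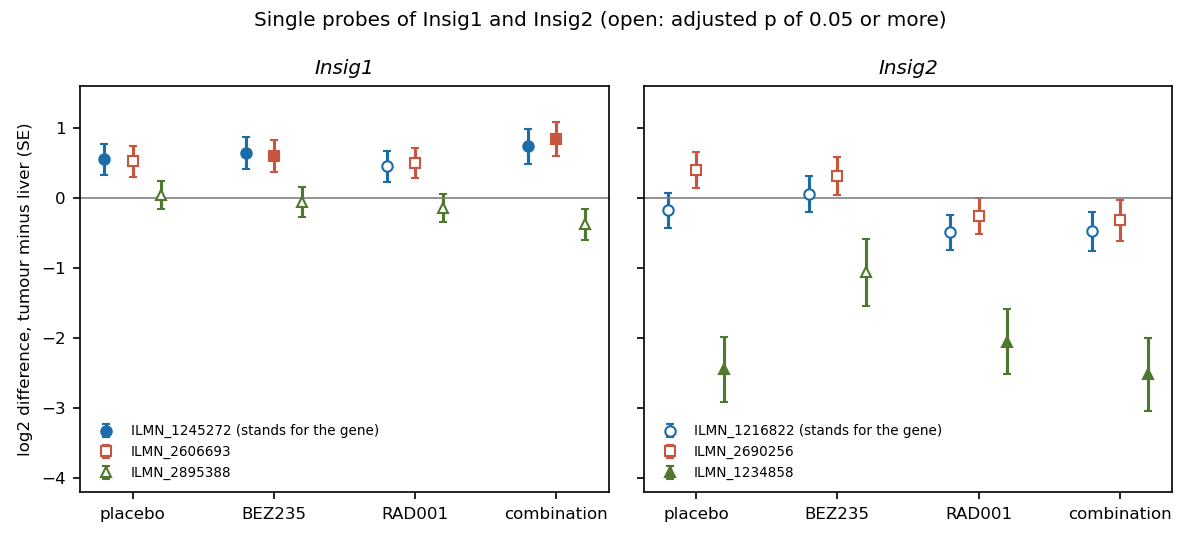
Log2 difference between tumour and liver for each kept probe of Insig1 and Insig2 in the 4 treatments, with its SE; open points did not pass an adjusted p of 0.05. Insig2 probe ILMN_1234858 lies between -1.06 and -2.51, below the other Insig2 probes in every treatment.

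The same comparison was then made within each treatment, between tumours and livers of equally treated animals. In BEZ235 animals 18 of the 33 genes were higher, against 14% of all genes tested, and 1 was lower, against 12.1%. The median difference was 0.65. Sqle had 7.47, 8.94 and 10.09 in BEZ235 livers and 11.19, 11.84 and 12.19 in BEZ235 tumours, without overlap, a rise of 2.86 (2.01 to 3.72, adjusted p = 1.68e-06). Of the cholesterol genes 10 of 16 rose, with Lss at 2.04, Dhcr7 at 1.63, Mvd at 1.63 and Cyp51 at 1.35, and Hsd17b7 at 0.71 (adjusted p = 0.0216). Of the fatty acid genes 6 of 13 rose, led by Fads2 at 1.56 and Acly at 0.96, and Me1 fell by 1.44 (adjusted p = 0.000231). Thrsp differed by -1.36 with an adjusted p of 0.0504. Srebf2 rose by 0.70 (adjusted p = 0.0064) and Insig1 by 0.65 (adjusted p = 0.0299), while Srebf1 differed by 0.17 (adjusted p = 0.746). Stard4 differed by 0.65 (adjusted p = 0.0622), and by 0.72 (adjusted p = 0.0221) with the animal as a block.

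In RAD001 animals 12 of the 33 genes were higher, against 14.7% of all genes tested, and 2 were lower, against 13.7%. The median difference was 0.38. Sqle had 8.09, 9.45 and 9.93 in RAD001 livers and 9.25, 11.52 and 12.37 in RAD001 tumours, where the lowest tumour lay within the livers, and rose by 1.98 (1.15 to 2.80, adjusted p = 0.000201). Of the cholesterol genes 9 of 16 rose, with Lss at 1.61, Dhcr7 at 1.5 and Mvd at 1.22. Among the fatty acid genes Fads2 rose by 1.31, Acly by 0.72 and Acaca by 0.62, while Thrsp fell by 2.11 and Me1 by 1.2. The 4 regulators did not pass, with Insig1 at 0.45 (adjusted p = 0.123) and Srebf2 at 0.39 (adjusted p = 0.131). With the animal as a fixed block over the 5 RAD001 animals that gave both tissues, 4 of the 33 genes remained called. They were Sqle at 1.92 (adjusted p = 0.0449), Lss at 1.59 (adjusted p = 0.0294), Me1 at -0.90 (adjusted p = 0.00656) and Thrsp at -1.80 (adjusted p = 0.0366). In this fit 1585 of the 10495 genes tested were called, so the share of the list lay below that of all genes. The 10 calls lost were those of Dhcr7 (adjusted p = 0.0504), Acly, Acaca, Fads2, Mvd, Fdps, Msmo1, Nsdhl, Hmgcs1 and Cyp51 (adjusted p = 0.306). Without the liver of animal 700, or without the tumour of animal 772, 9 of the 33 genes were called. Of the 10495 genes tested, 2780 and 2701 were called in these fits, so the list had about the share of all genes.

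In combination animals 14 of the 33 genes were higher, against 10.5% of all genes tested, and 1 was lower, against 8.72%. The median difference was 0.60. The tumour values of the 4 combination animals were 12.40, 11.75, 10.86 and 12.16 for Sqle, all above the highest combination liver at 9.67. Sqle rose by 2.93 (2.0 to 3.86, adjusted p = 1.14e-05). Mvd stood at 9.17, 7.30, 7.32 and 8.81 in the tumours of these animals and rose by 2.22 (1.37 to 3.07, adjusted p = 0.00015). Of the cholesterol genes 10 of 16 rose, Stard4 among them at 0.79 (adjusted p = 0.0469), and of the fatty acid genes Fads2 rose by 1.19, Acly by 0.80 and Acaca by 0.79, while Me1 fell by 1.25 (adjusted p = 0.00417). Insig1 rose by 0.74 (adjusted p = 0.0303). Many of these calls were lost when an animal's tumour was left out. Without the tumour of animal 775, 6 listed genes were called, and without that of animal 713, an average of 2 tumours, 7. Sqle and Mvd were called in both cases. Over all genes tested, 1393 and 1466 were called in these fits, against 2013 with all 4 animals. Calls thus fell over all genes as well, with fewer tumours fitted. What part these animals themselves had in the loss was not tested. With the animal as a block, over 4 animals, 5 genes lost their calls, Lss at 1.67 (adjusted p = 0.0817), Me1 at -1.12 (adjusted p = 0.173), Acly at 1.04 (adjusted p = 0.0892), Msmo1 at 1.36 (adjusted p = 0.0511) and Stard4 at 0.79 (adjusted p = 0.0716). Idi1 gained one, at 0.75 (adjusted p = 0.0476).

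Across the 4 treatments, 12 of the 33 genes were called higher in tumour in every one, Sqle, Lss, Hmgcs1, Cyp51, Dhcr7, Mvd, Nsdhl, Msmo1, Fdps, Fads2, Acly and Acaca. That is 36.4% of the measured list and 56.2% of the cholesterol genes, beside 7.12% of all genes tested. With the animal as a fixed block, Sqle alone of the 33 was called in all 4 treatments. It stood at 3.28, 2.94, 1.92 and 3.29 in placebo, BEZ235, RAD001 and combination animals. No share of all genes called in all 4 with the block is set beside this, so it is a description only. Me1 was called lower in all 4 without the block, which is 3.03% of the list beside 6.12% of all genes. Among the 18 animals with both tissues, Sqle was higher in the tumour in 17, with a median difference within an animal of 3.15. The exception was RAD001 animal 732, at -0.21. Fads2, Dhcr7 and Acaca were also higher in 17 of 18, and Lss, Hmgcs1, Cyp51, Mvd, Nsdhl, Insig1, Stard4 and Acly in 16. Me1 was lower in 17 of 18, with combination animal 773 at 0.50 as the exception, Lpin1 in 15 and Thrsp in 14. Scd1 was higher in 11 and lower in 7, and Srebf1 higher in 10 and lower in 8.

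Averaged over the measured genes of a group, the cholesterol genes had a mean log2 intensity per animal of 9.05 ± 0.50 (SD, n = 7) in placebo livers and 9.87 ± 0.30 (n = 6) in placebo tumours. In RAD001 tumours it was 9.76 ± 0.76 (n = 6), from 8.62 in animal 732 to 10.67 in animal 772. The tumours of the 4 combination animals stood at 10.41, 9.50, 9.24 and 10.38. For the fatty acid genes the means were 10.32 ± 0.15 in placebo livers and 10.38 ± 0.31 in placebo tumours, since their higher and lower members offset each other in the mean.

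**Figure D4:**
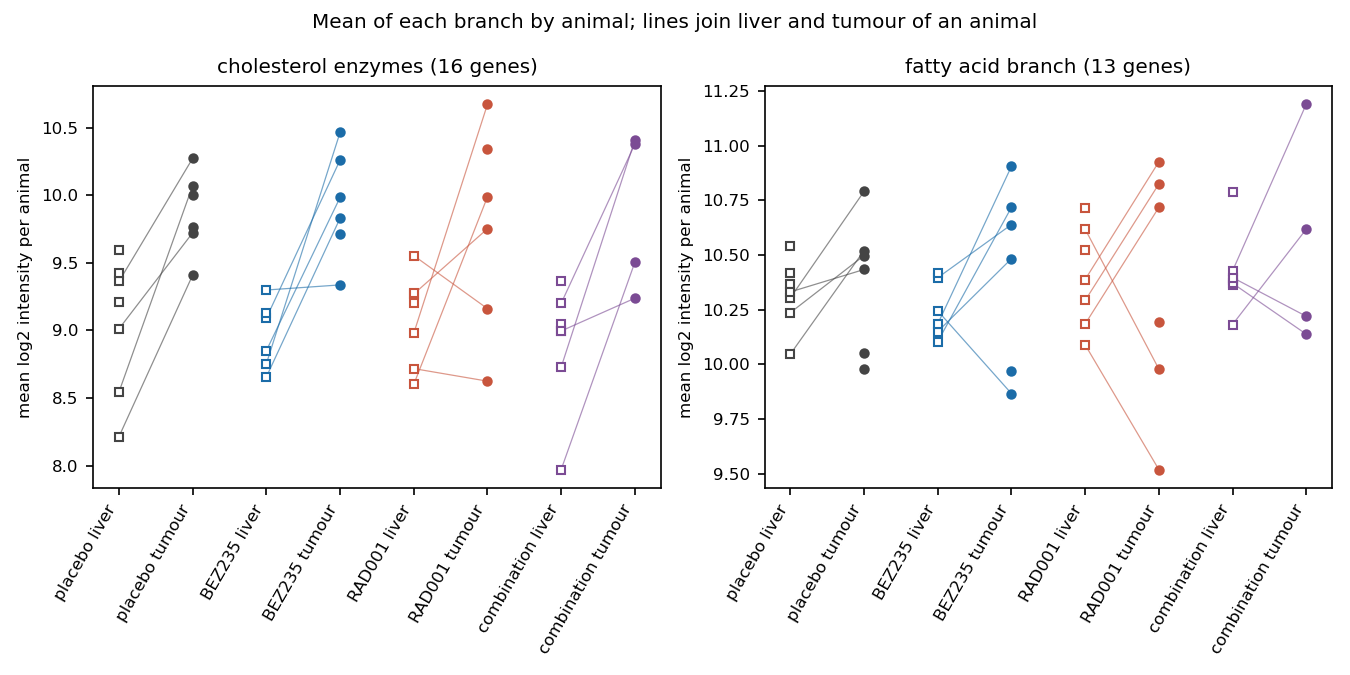
Mean log2 intensity of the 16 cholesterol genes and of the 13 fatty acid genes in each animal, by treatment and tissue, with lines joining liver and tumour of an animal. The cholesterol means lie higher in most tumours than in livers, from 9.05 to 9.87 in placebo groups, while the fatty acid means overlap.

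The second question was whether a treatment changed these genes within a tissue. In 0 of 10 comparisons did limma call any of the 33 genes, in either direction. In livers, the background was 0.0286% of genes under BEZ235 against placebo, 0% under RAD001, 0.276% under the combination, 0.877% for the combination against RAD001 and 0% for the combination against BEZ235. At an unadjusted p under 0.05 the listed genes numbered 1, 0, 3, 0 and 0 in these 5 comparisons, and all genes tested 541, 674, 886, 1027 and 409. In tumours, the background was 0% under BEZ235, 0% under RAD001 and 0% under the combination against placebo, 0.0191% for the combination against RAD001 and 0% against BEZ235. There the unadjusted counts were 0, 1, 1, 0 and 0 of the listed genes and 558, 740, 839, 481 and 300 of all genes. A difference that misses the limit does not show equal levels, and the intervals below bound what these animals allow.

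In livers, Sqle differed from placebo by -0.06 (-0.96 to 0.84) under BEZ235, by 0.31 (-0.56 to 1.17) under RAD001 and by -0.06 (-0.92 to 0.81) under the combination. Hmgcs1 was bounded more narrowly, at -0.03 (-0.44 to 0.38), 0.09 (-0.30 to 0.49) and -0.16 (-0.55 to 0.24). Over the 16 cholesterol genes the median difference was -0.07 under BEZ235, -0.14 under the combination and 0.02 under RAD001. These comparisons share the placebo livers. No median over all genes tested is set beside these values, so they are a description only. For the fatty acid genes the medians were -0.04, 0.08 and 0.07 under BEZ235, the combination and RAD001.

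The largest liver difference from placebo was that of Thrsp under BEZ235. It was 10.26, 10.80 and 12.09 in placebo livers and 9.26, 9.81 and 11.09 in BEZ235 livers, a difference of -0.94 (-1.61 to -0.27, unadjusted p = 0.0074, adjusted p = 0.848) with overlapping groups. Thrsp differed by 0.01 under RAD001 and by -0.28 under the combination. Srebf1 differed by -0.60 (-1.28 to 0.08) under BEZ235, with medians of 6.86 in placebo and 6.27 in BEZ235 livers. Under the combination, Tm7sf2 differed by -0.44 (-0.81 to -0.07, adjusted p = 0.477), Ebp by -0.26 (adjusted p = 0.555) and Fads2 by 0.31 (adjusted p = 0.565). Scd1 differed by -0.05 (-0.34 to 0.23), -0.14 (-0.42 to 0.13) and 0.01 (-0.27 to 0.29) under BEZ235, RAD001 and the combination.

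In tumours, Sqle differed from placebo by 0.02 (-0.76 to 0.80) under BEZ235, by -0.49 (-1.27 to 0.29) under RAD001 and by 0.06 (-0.81 to 0.93) under the combination. The 33 genes had medians of 0.08, -0.20 and -0.02 in these comparisons, beside -0.01, -0.00 and -0.01 over all genes tested. Me1, low in placebo tumours, had medians of 7.06 in placebo, 7.83 in BEZ235 and 8.33 in RAD001 tumours and 8.57, 7.82, 9.74 and 7.19 in the tumours of the 4 combination animals. It differed from placebo by 0.68 (-0.19 to 1.55), 0.87 (-0.00 to 1.74) and 0.88 (-0.10 to 1.85), and did not pass in any. Thrsp stood at 12.08, 9.53, 9.61 and 8.34 in the combination tumours against a highest placebo tumour of 10.11, a difference of 1.46 (-0.17 to 3.09, adjusted p = 0.667) that 1 animal, 713, carried above the placebo range. Ebp differed by 0.42 (adjusted p = 0.704) under RAD001 and Sc5d by 0.79 (0.02 to 1.56, adjusted p = 0.615) under the combination. Srebf2 differed by 0.09 (-0.34 to 0.51), -0.05 (-0.48 to 0.37) and -0.03 (-0.51 to 0.45) under BEZ235, RAD001 and the combination.

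**Figure D5:**
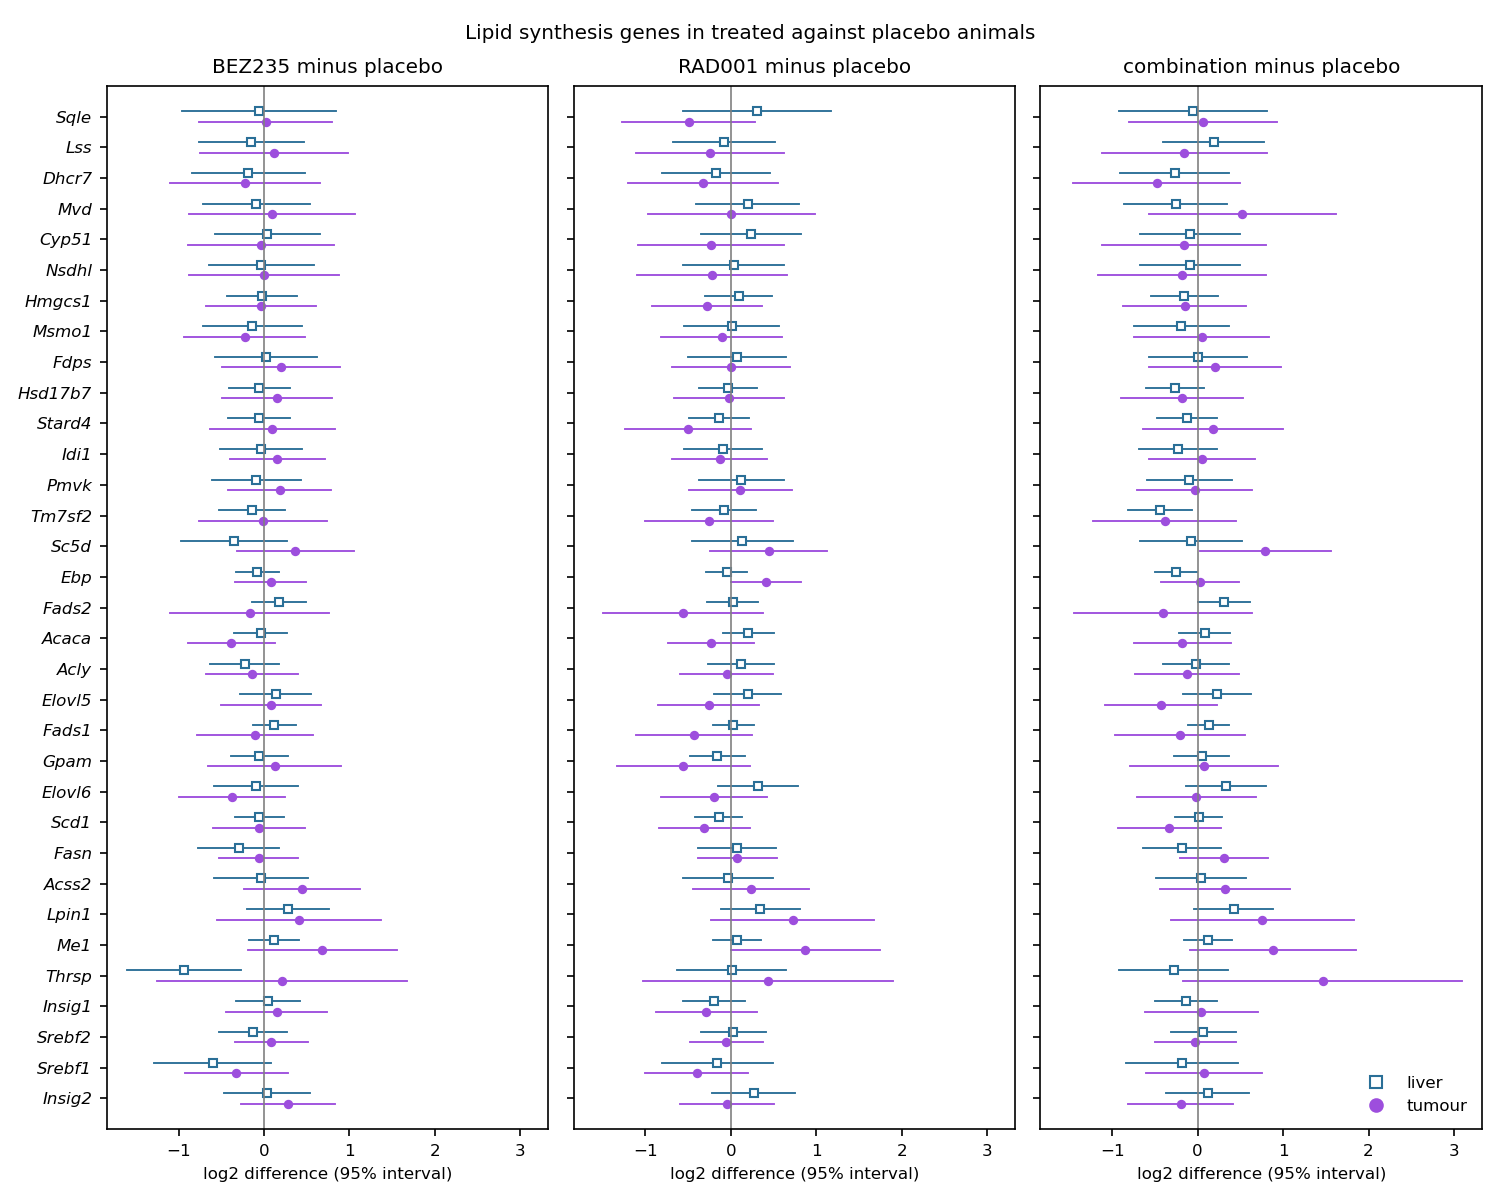
Log2 difference from placebo for each of the 33 genes under BEZ235, RAD001 and the combination, in liver (open squares) and tumour (filled circles), with 95% intervals. None passed an adjusted p of 0.05, and the widest tumour intervals are those of Thrsp, from -0.17 to 3.09 under the combination.

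The third question was whether a treatment effect differed between tumour and liver. limma called 0 of the 33 genes under BEZ235, RAD001 or both, with backgrounds of 0%, 0.0191% and 0.00953%. At an unadjusted p under 0.05 there were 0, 2 and 1 of the listed genes, and 562, 787 and 886 of all genes. The 2 under RAD001 were Ebp and Me1, for which the tumour effect exceeded the liver effect by 0.46 and 0.83 (adjusted p = 0.653 and 0.658). The 1 under the combination was Thrsp, at 1.70 (0.14 to 3.25, adjusted p = 0.563). The smaller tumour-to-liver difference of Sqle in RAD001 animals, 1.98 against 2.81 in placebo animals, amounted to -0.83 (-2.01 to 0.34, adjusted p = 0.747) and was not distinguished from 0.

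Other genes of the pathway were looked at beside the list, in a comparison that called 34.8% of all genes tested, 18.8% as higher and 16% as lower. Of 4 measured genes listed as further SREBP-2 targets, 3 were higher in placebo tumours. They were Aacs, acetoacetyl-CoA synthetase, at 1.04, Tmem97, a sterol-regulated membrane protein, at 0.83 and Lbr, a sterol reductase of the nuclear envelope, at 0.49. Whether Lbr is such a target was not tested. Of 6 measured genes of SREBP processing, 2 were higher and 1 lower in placebo tumours, and Scap differed by 0.44 (adjusted p = 0.0928). Erlin1, a cofactor of INSIG-dependent degradation, was 0.86 higher, and Rnf139, a sterol-linked ubiquitin ligase, fell by 0.64. Of 13 measured genes of triglyceride assembly and lipid droplets, 8 were lower and 1 higher, with Fitm1 at -2.88, Cidea at -2.24 and Plin5 at -1.92 and the droplet coat gene Plin2 at 1.17. Of 8 measured genes of glucose-driven lipogenesis and NADPH supply, 1 was higher, Mid1ip1 at 0.61, and 1 lower, Idh1 at -0.56, while Mlxipl, the gene of ChREBP, differed by -0.19 (adjusted p = 0.37). Of 6 measured LXR and sterol efflux genes 2 were higher, Lpcat3 at 0.46 and Npc2 at 0.42, and Nr1h3, the gene of LXR alpha, differed by -0.20 (adjusted p = 0.226). The 2 last lists, with 25.0% and 33.3% called, lie near or below the share of all genes, so these counts are no result about them. None of these genes was called in a treatment comparison.

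Markers of cell types were compared in the same samples, where 34.8% of all genes tested were called. The called shares of the hepatocyte (33.3%), biliary (33.3%) and endothelial (20.0%) markers lie at or below it. Of 9 measured hepatocyte markers 2 were higher and 1 lower in placebo tumours, and their summed intensity was 151000 to 164000 in livers and 139000 to 170000 in tumours. Of 7 Kupffer cell and macrophage markers 5 were lower, Clec4f at -2.07 and Vsig4 at -1.52 among them, with sums of 1960 to 5620 in livers and 513 to 2870 in tumours. Of 10 stellate cell and fibroblast markers 4 were higher and 1 lower, with sums of 4790 to 6130 and 4840 to 7020. Of 10 endothelial markers 2 were higher, with sums of 4730 to 6360 and 2290 to 6220, and of 3 biliary markers 1 was higher, with sums of 23.9 to 81.6 and 43.3 to 112. Of 6 lymphocyte and neutrophil markers and 2 adipocyte markers, limma called 0, with 2 and 0 of them at an unadjusted p under 0.05. The adipocyte sums were 34.2 to 224 and 20.2 to 298, and Adipoq, Plin1, Cfd, Retn and Fabp4 were not among the genes tested. On a scale set by 10462 genes outside the list, with 0 at the mean placebo liver and 1 at the mean placebo tumour, placebo tumours ran from 0.875 to 1.11 and combination tumours from 0.386, in animal 773, to 0.863. BEZ235 tumours ran from 0.299 to 1.04 and RAD001 tumours from 0.472 to 1.04. Livers ran from -0.0447 to 0.0547 in placebo, -0.0112 to 0.156 in BEZ235 and -0.0365 to 0.0808 in RAD001 animals. Combination livers ran from 0.0205 to 0.289, in animal 742, close to the lowest BEZ235 tumour. The placebo animals set the scale, so their positions and those of treated animals are not on equal terms. The lowest BEZ235 tumour, of animal 693, had a cholesterol gene mean of 10.26, within the range of placebo tumours. The lowest RAD001 tumour, of animal 732, had 8.62, and the lowest combination tumour, of animal 773, had 9.24. Both lie within the range of livers. The RAD001 tumour of animal 763, at a position of 0.715, had 9.16, also within that range. Without the RAD001 tumours of animals 730 and 732, 17 listed genes were called between tumour and liver, against 14 with all animals. Without the BEZ235 tumours of animals 693 and 759, 20 were called, against 19. Over all genes tested, 3080 and 2977 were called in these fits, against 2987 and 2731 with all animals. Calls over all genes rose as well, so these counts are a description only. What part the makeup of the tissue had in the differences was not tested.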

How the data were processed

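RNA of 27 livers and 37 tumours was read on Illumina mouse bead arrays. The deposited values are linear intensities with background already subtracted, and the submitters' processing notes name BeadStudio. The brightest 100 ranks are identical within each treatment, so the authors had quantile-normalized the arrays of a treatment together. Whether they normalized the treatments separately or jointly was not tested. The joint normalization described next can remove shifts between treatments. Here, the 64 arrays were quantile-normalized jointly, normexp was run with a noise SD of 7.02 and offset 16, and the deposited intensities were put on the log2 scale. Probes above 14.0 (2 noise SDs) on at least 6 arrays were kept (15244 of 25697), and the brightest kept probe stood for a gene. Tumours of an animal were averaged. limma 3.58.1 in R 4.3.3 gave two-sided p-values, adjusted after Benjamini and Hochberg across 10495 genes, with 0.05 as the limit. Tumour and liver were compared in a fit of 8 groups in which the animal was a random block (within-animal correlation 0.0968), and treatments within the 4 groups of a tissue. The number opening a sample title names the mouse, which pairs the tissues. The detection limit rests on mirrored negative values, since control probes were not used here, and the number of arrays limits precision. The sources used here give no slide or scan date. A further non-normalized table of 128 value columns, whose names match no sample label, was not used. The genes, lists and naming rule (main enzymes and regulators, largest called differences, lowest p of each further list) were chosen with earlier results of these data known. The fit was tested on simulated data. Replicate block, leave-one-out and other settings were tried as alternatives.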

Additional observations from a re-analysis of the deposited data

Results flagged for a closer look

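Of 280 groups of 4 to 7 animals looked at, 15 held an animal that stood apart from the rest by Dixon's criterion, and chance alone marks about 1 in 20. Values are log2 intensities, each with that of the nearest animal of its group. RAD001 animal 732 accounted for 3 of the 15, combination animal 726 for 3 and placebo animal 696 for 2. Fads1 was lowest at 11.85 in the RAD001 tumour of animal 732 (nearest 13.96). Scd1 was lowest at 13.15 in the RAD001 liver of animal 732 (nearest 14.03). Scd1 was lowest at 12.59 in the RAD001 tumour of animal 732 (nearest 14.08). Msmo1 was lowest at 9.17 in the combination liver of animal 726 (nearest 10.17). Sc5d was lowest at 6.56 in the combination tumour of animal 726 (nearest 7.65). Sqle was lowest at 7.19 in the combination liver of animal 726 (nearest 8.69). Acaca was lowest at 9.48 in the placebo liver of animal 696 (nearest 9.98). Stard4 was lowest at 8.57 in the placebo liver of animal 696 (nearest 9.18). Fdps was lowest at 12.72 in the BEZ235 tumour of animal 759 (nearest 13.48). Insig2 was lowest at 10.90 in the RAD001 tumour of animal 763 (nearest 11.87). Pmvk was highest at 8.68 in the combination tumour of animal 713 (nearest 8.18). Srebf1 was highest at 8.53 in the placebo liver of animal 710 (nearest 7.31). Srebf1 was highest at 7.65 in the BEZ235 liver of animal 712 (nearest 6.53). Thrsp was lowest at 9.82 in the RAD001 liver of animal 730 (nearest 10.81). The mean of the fatty acid genes was highest at 10.79 in the combination liver of animal 709 (nearest 10.43).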

How the results depend on the processing

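The limits are few animals per group, 4 for combination tumours, and dim probes for Fasn, Idi1 and Mvd. A further limit is normalization, done by the authors and again here over all arrays, which can remove shifts between treatments. Of 404 alternative counts of called genes, 399 stayed within 1.5 times the count reported. Most of the 404 belong to the 13 comparisons that called 0 listed genes, where every alternative also gave 0. They say little about the comparisons with calls. The 5 that moved were for RAD001 animals 4 with the replicate block, 9 without liver 700 and 9 without tumour 772, and for combination animals 6 without tumour 775 and 7 without tumour 713, where fewer samples were fitted. Leaving out 1 animal at a time gave 17 to 21 called genes in placebo, 16 to 20 in BEZ235, 9 to 18 in RAD001 and 6 to 17 in combination animals, and 0 in each of the 13 other comparisons. Other settings gave 17 to 21, 17 to 21, 10 to 15 and 12 to 16. Calls over all genes are not set beside these ranges, which are therefore a description only. Those calls changed with the fit too, for example to 2780 without liver 700 and 1393 without tumour 775. With the replicate block, placebo gave 19, BEZ235 20 and the combination 11, beside 2247, 1560 and 918 of the 10495 genes tested. The share of the list lay above that of all genes there, but below it in RAD001 animals (4 beside 1585). Of 69 calls of single genes between tumour and liver, 36 held under every alternative run, among them Sqle in all 4 treatments. In placebo animals the calls of Insig1 (17 alternatives), Gpam (13), Srebf2 (12), Lpin1 (6), Ebp (2) and Fdps (1) were lost under some. Among called values the direction turned for Insig1 with the probe ILMN_2895388, at -0.0557 in BEZ235 and -0.376 in combination animals. Values that were not called could turn too, such as Insig1 in RAD001 animals (-0.14 with that probe) and Insig2 in placebo animals (0.40 with ILMN_2690256). The cause of the other changes was not tested.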

Other observations

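Separate tumours of 1 animal varied in these genes. In the 12 animals with more than 1 tumour, the mean of the cholesterol genes differed between the highest and the lowest tumour by 0.05 to 1.16 on the log2 scale, with a median of 0.50. The mean of the fatty acid genes differed by 0.04 to 1.48, with a median of 0.58. The widest range in both groups of genes was that of placebo animal 747.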
